A study of Mus musculus with 12 samples.

Results

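Skeletal muscle transcripts were present in some MC38 tumor blocks and nearly absent from others. MC38 is a mouse colon adenocarcinoma cell line, here grown as tumors in wild type mice that were injected intravenously with BG136, a soluble β-glucan, or with vehicle. Acta1, the actin of the skeletal muscle thin filament, divided the samples: those with at least 5 FPKM (fragments per kilobase of transcript, scaled for depth) are called muscle-containing, and the rest muscle-poor. BG136 libraries 7 and 9 were no further apart than sampling noise allows and were averaged into 1 sample, which left 11 samples from 12 libraries. Of these 11, 6 were muscle-containing (BG136 2, 4, 6 and the mean of 7 and 9; vehicle 3 and 11) and 5 were muscle-poor (BG136 1; vehicle 1, 2, 7 and 12). Muscle-containing samples thus made up 4 of 5 BG136 samples and 2 of 6 vehicle samples. Below, values per sample follow that order of names. The division was made from the measured Acta1 values, so the levels of muscle genes describe it and no p is given for them.

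Depth was 14828786 to 18125931 recovered reads in 10 libraries, and 33231037 and 32956232 in BG136 7 and 9. Per gene, the chi-square of libraries 7 and 9 was 0.285, against 7.88 to 57.4 in the other 29 pairs within a group. The sources used here give no animal numbers, batch, date or tumor size. BG136 4 and 6 stood apart from the other samples in epithelial keratins: Krt18, a filament protein of simple epithelia, was listed at 0 in both, against 1.27 to 7.59 FPKM in the other 9 samples. Krt8, its filament partner, was at 0 and 0.140 FPKM in those, against 1.32 to 7.02 FPKM in the other 9. Epcam, an adhesion protein of epithelia such as that of the labelled colon adenocarcinoma, was low in every sample, at 0.0611 to 1.83 FPKM.

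Skeletal muscle fibres contract when calcium released from the sarcoplasmic reticulum lets myosin thick filaments pull on actin thin filaments. Adult fast fibres are built from fast isoforms of myosin, troponin and the calcium pump, while developing or regenerating fibres use embryonic and neonatal isoforms under the control of myogenin. The sources used here do not give the site at which the tumors grew.

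Promoters are shown first for 3 genes that mark the division, Acta1, Ckm and Mylpf, and for Myog, which followed another pattern. The 250 bases before the transcript start are given 5′ to 3′ from RefSeq (GRCm38.p6), for the thin filament actin, muscle creatine kinase, the fast myosin light chain and the transcription factor myogenin. Capitals mark E-boxes (CANNTG, the sequence bound by myogenic helix-loop-helix factors), TATATAA, and CArG boxes, the sequence bound by serum response factor. Both strands were searched, and the motifs were chosen after reading the sequences.
Acta1: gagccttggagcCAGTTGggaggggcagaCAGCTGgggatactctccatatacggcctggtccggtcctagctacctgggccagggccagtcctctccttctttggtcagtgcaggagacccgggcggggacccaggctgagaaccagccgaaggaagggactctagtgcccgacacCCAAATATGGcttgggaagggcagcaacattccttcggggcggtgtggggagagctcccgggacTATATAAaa
Ckm: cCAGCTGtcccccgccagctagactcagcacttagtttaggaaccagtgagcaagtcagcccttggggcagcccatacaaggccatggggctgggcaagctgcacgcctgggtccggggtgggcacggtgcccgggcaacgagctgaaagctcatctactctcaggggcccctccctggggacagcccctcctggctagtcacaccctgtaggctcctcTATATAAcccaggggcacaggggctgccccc
Mylpf: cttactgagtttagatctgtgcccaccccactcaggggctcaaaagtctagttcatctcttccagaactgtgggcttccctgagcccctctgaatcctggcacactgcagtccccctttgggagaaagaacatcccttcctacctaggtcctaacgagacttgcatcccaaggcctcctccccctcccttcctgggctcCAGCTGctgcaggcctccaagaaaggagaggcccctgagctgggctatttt
Myog: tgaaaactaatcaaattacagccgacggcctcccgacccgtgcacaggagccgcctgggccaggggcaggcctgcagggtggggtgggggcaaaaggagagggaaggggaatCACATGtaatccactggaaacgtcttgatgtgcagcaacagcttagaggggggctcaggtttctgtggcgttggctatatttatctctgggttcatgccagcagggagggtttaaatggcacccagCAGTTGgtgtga
The Acta1 window, chr8:123894776-123895025 on the minus strand, held 2 E-boxes, 1 CArG box and 1 TATATAA. The Ckm window, chr7:19410844-19411093 on the plus strand, held 1 E-box and 1 TATATAA. The Mylpf window, chr7:127211358-127211607 on the plus strand, held 1 E-box. The Myog window, chr1:134289754-134290003 on the plus strand, held 2 E-boxes. Of 104 windows matched to 82 of the 113 muscle genes in the table, 82.7% held an E-box, 6.73% a CArG box and 2.88% TATATAA. Over all 32851 windows these shares were 66.2%, 1.47% and 3.04%. A match describes the letters only.

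Acta1 was at 21.6, 81.5, 9.90 and 34.5 FPKM in the BG136 and 114 and 67.4 FPKM in the vehicle muscle-containing samples, against 0.212 FPKM in the BG136 and 0.262, 0.632, 1.68 and 0.147 FPKM in the vehicle muscle-poor samples. The sample just inside the limit was BG136 6, with 247 Acta1 reads, and the sample just outside it was vehicle 7, with 45 reads. No muscle-poor sample was without Acta1 reads, the lowest being vehicle 12 with 4. The mean was 93.3-fold higher in muscle-containing than in muscle-poor samples. Whether a block held more muscle cells or more RNA per muscle cell cannot be told apart in bulk samples.

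Ckm, the creatine kinase that buffers ATP in contracting fibres, was at 5.24, 22.4, 2.58 and 7.57 FPKM in the BG136 and 29.7 and 14.2 FPKM in the vehicle muscle-containing samples, against 0.0393 in the BG136 and 0.166, 0.0780, 0.497 and 0 FPKM in the vehicle muscle-poor samples. Tnnt3, the fast troponin that ties the calcium switch to tropomyosin, ran from 3.07 (BG136 6) to 33.1 FPKM (vehicle 3) in muscle-containing samples, against 0.395 to 0.755 FPKM in muscle-poor samples. Mylpf, the regulatory light chain of fast myosin, ran from 3.27 to 37.9 FPKM in muscle-containing samples, against 1.00 to 2.05 FPKM in muscle-poor samples. BG136 6 was the lowest and vehicle 3 the highest muscle-containing sample for all 4 markers. Together the 4 markers took up 0.0048% to 0.0534% of summed FPKM in muscle-containing samples, against 0.000349% to 0.00116% in muscle-poor samples.

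**Figure D1:**
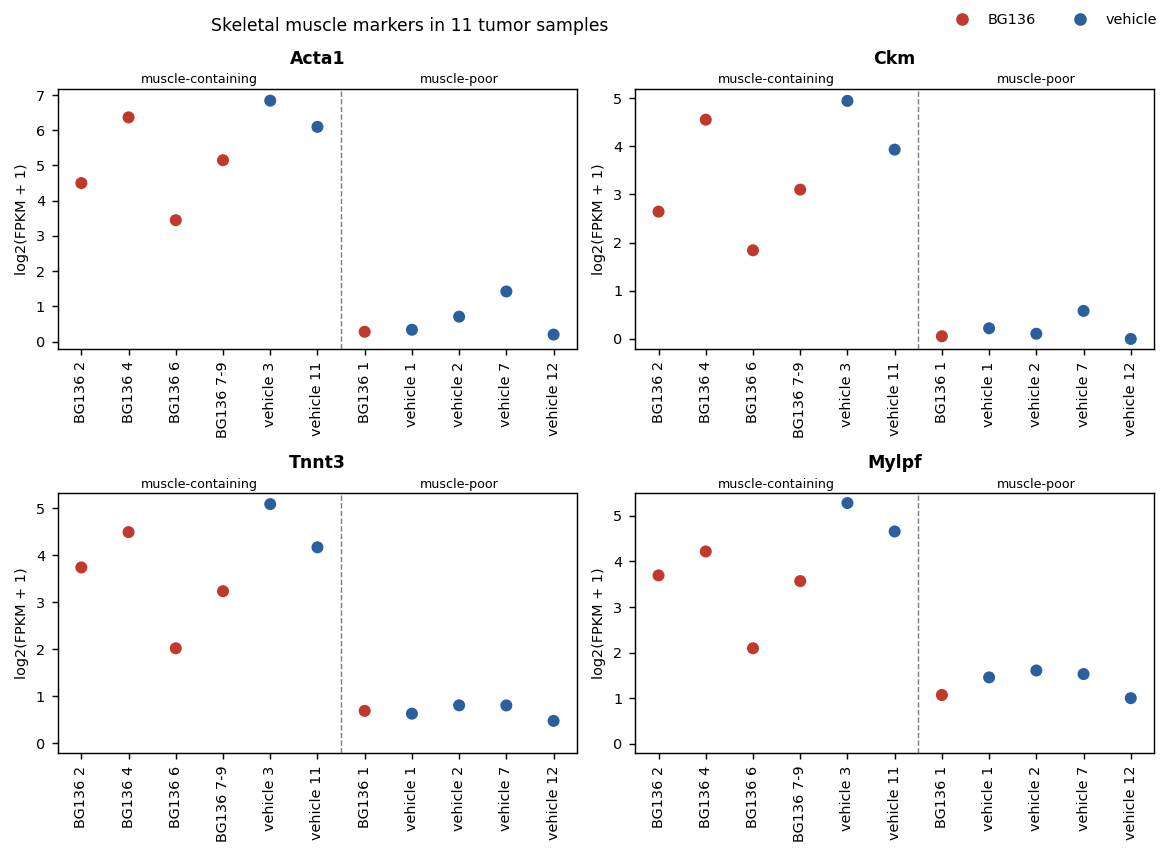
Level of Acta1, Ckm, Tnnt3 and Mylpf as log2(FPKM + 1) on the vertical axis, 1 point for each of 11 samples, with muscle-containing samples left of the dashed line and muscle-poor samples right of it (red BG136, blue vehicle; BG136 7-9 is the mean of libraries 7 and 9). Acta1 spans 9.90 to 114 FPKM on the left and 0.147 to 1.68 FPKM on the right, and the sets do not overlap for any of the 4 genes.

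The muscle genes were listed by role: 123 genes in 7 lists, of which 113 were in the table and 29 had at least 1 FPKM in at least 6 samples. In 42 of the 113 the muscle-containing samples all lay above the muscle-poor samples, and in 0 all below. Over all 15170 genes of the table the shares were 0.633% above and 0.0725% below, and since the division itself was made from a muscle gene, nothing is read from the excess. The median log2 difference was 0.37 for the muscle lists and 0.02 for all genes, as the mean log2(FPKM + 1) of muscle-containing minus muscle-poor samples with treatment held fixed. A difference on this scale understates the change of low genes.

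In the thick filament, 9 of 14 genes had sets that did not overlap. Myh4, the fastest myosin heavy chain, was at 1.93, 12.6, 1.22 and 3.42 FPKM in the BG136 and 9.25 and 4.31 FPKM in the vehicle muscle-containing samples, against 0 in the BG136 and 0, 0.0366, 0.0777 and 0 FPKM in the vehicle muscle-poor samples. Myh1, a fast heavy chain of intermediate speed, ran from 0.355 to 11.2 FPKM in muscle-containing samples, against 0.0194 to 0.101 FPKM in muscle-poor samples. The ratio of Myh4 to Myh1 was 1.75, 3.99, 3.44 and 1.11 in the BG136 and 0.824 and 1.28 in the vehicle muscle-containing samples. Both are fast heavy chains, and Myh4 was the more abundant in 5 of these 6 samples; vehicle 3 had more Myh1. Myh2, the heavy chain of oxidative fast fibres, was at 5.92 FPKM in vehicle 3, against 0.0414 to 1.25 FPKM in the other muscle-containing samples and 0 to 0.0386 FPKM in muscle-poor samples.

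In the thin filament, 5 of 14 genes had sets that did not overlap: Acta1, Tnnt3, Tnnc2, Tnni2 and Lmod2. Tnnc2, the fast calcium-binding troponin, ran from 1.45 to 31.1 FPKM in muscle-containing samples, against 0 to 1.02 FPKM in muscle-poor samples. Other members of the list did not follow the division. Tpm1, a tropomyosin with isoforms in many cell types, was at 103 to 129 FPKM in muscle-containing and 102 to 122 FPKM in muscle-poor samples. Tpm2, another tropomyosin, was at 59.3 to 87.3 FPKM in muscle-containing and 57.5 to 71.9 FPKM in muscle-poor samples.

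Among Z disc genes, which anchor the thin filaments, 8 of 17 had sets that did not overlap. Des, the intermediate filament of muscle, was at 9.42, 10.1, 2.16 and 6.42 FPKM in the BG136 and 13.4 and 10.95 FPKM in the vehicle muscle-containing samples, against 1.02 in the BG136 and 1.32, 0.882, 0.880 and 0.962 FPKM in the vehicle muscle-poor samples. Ttn, the spring protein that spans from Z disc to M band, reached only 0.0480 to 0.357 FPKM in muscle-containing samples, against 0.00886 to 0.0250 FPKM in muscle-poor samples. Flnc, an actin crosslinker, overlapped at 21.4 to 38.6 FPKM in muscle-containing and 27.7 to 35.4 FPKM in muscle-poor samples.

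Of the calcium and excitation genes, 9 of 20 had sets that did not overlap. Atp2a1, the calcium pump of fast fibres, ran from 1.63 to 17.1 FPKM in muscle-containing samples, against 0.0323 to 0.307 FPKM in muscle-poor samples. Pvalb, the calcium buffer of fast fibres, ran from 1.45 to 9.85 FPKM in muscle-containing samples, against 0 to 0.169 FPKM in muscle-poor samples. Ryr1, the calcium release channel, was low, at 0.0817 to 0.879 FPKM in muscle-containing and 0.0075 to 0.0504 FPKM in muscle-poor samples. These fast-fibre genes had the same extremes as the markers, with BG136 6 lowest and vehicle 3 highest.

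Of the energy genes, 5 of 20 had sets that did not overlap. Mb, the oxygen store myoglobin, was at 2.73, 4.66, 0.396 and 3.03 FPKM in the BG136 and 12.5 and 2.68 FPKM in the vehicle muscle-containing samples, against 0 in the BG136 and 0.106, 0.0992, 0.264 and 0.208 FPKM in the vehicle muscle-poor samples. Vehicle 3 was again apart from the rest. Genes of this list that did not follow the division included Cox6a2, a subunit of cytochrome oxidase, at 52.3 to 76.3 FPKM in muscle-containing and 42.1 to 85.1 FPKM in muscle-poor samples, and Pfkm, a phosphofructokinase, at 18.0 to 25.2 FPKM in muscle-containing and 20.7 to 24.2 FPKM in muscle-poor samples. Of the membrane and turnover genes 5 of 19 had sets that did not overlap, and of the myogenic regulators 1 of 9. That regulator was Myf6, the myogenic factor of mature fibres, at 0.0502 to 0.532 FPKM in muscle-containing and 0 to 0.0468 FPKM in muscle-poor samples.

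**Figure D2:**
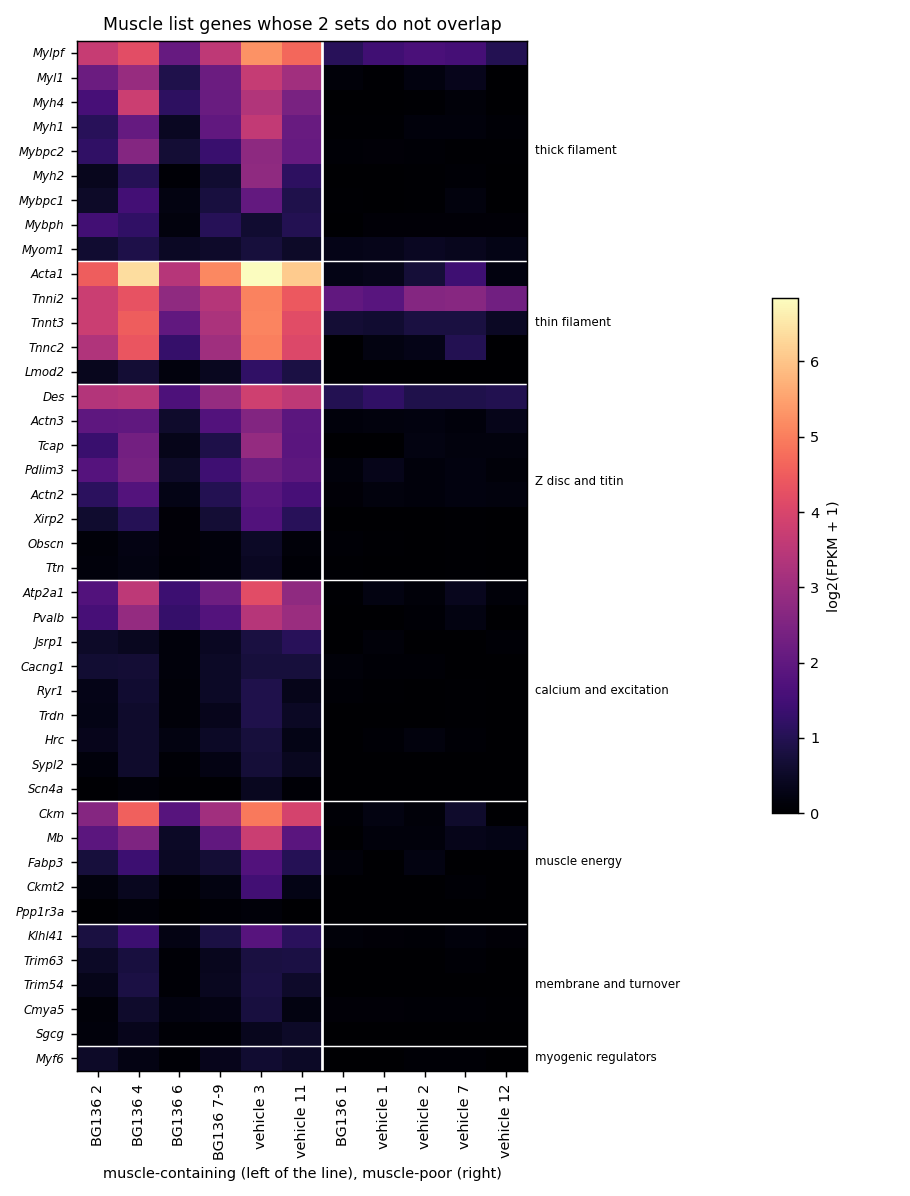
Level, as log2(FPKM + 1) by colour, of the 42 muscle list genes whose 2 sets do not overlap, with 1 row per gene grouped by list and 1 column per sample, muscle-containing left of the white line. Vehicle 3 holds the brightest column for most genes and BG136 6 the dimmest of the 6 on the left.

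A set of 10 genes linked to developing or regenerating fibres had another order of samples than a set of 8 adult fibre genes. Both sets were picked after their values were seen, so the counts that follow restate that choice and describe these samples only. The 10 were Myog, Mymk, Myh3, Myh8, Chrng, Chrnd, Actc1, Tnnt1, Mybph and Sln. Some other genes of the lists they came from had other orders. Myod1 was at 0.0727 FPKM in BG136 2 and highest in vehicle 11, at 0.205 FPKM. Cdh15 (0.142 FPKM in BG136 2) and Csrp3 (1.87 FPKM) were highest in vehicle 3, at 0.293 and 5.82 FPKM. Of the 10 developmental genes 9 were highest in BG136 2, while 7 of the 8 adult genes were highest in vehicle 3. The summed developmental genes amounted to 16.6%, 2.21%, 1.19% and 6.23% of the summed adult genes in the BG136 and 0.436% and 2.74% in the vehicle muscle-containing samples. In BG136 2 the largest members were Sln, Mybph and Tnnt1, at 2.20, 1.77 and 1.70 FPKM of a summed 9.17 FPKM. These 3 are not restricted to developing fibres, so the ratio does not measure development alone. In reads, the 10 developmental genes had 229, 87, 8 and 282 in the BG136 and 35 and 93 in the vehicle samples, so these are low counts. The value of 282 comes from the mean of the 2 deepest libraries. In muscle-poor samples the ratio was 41.4% in the BG136 and 10.4%, 13.3%, 9.54% and 24.6% in the vehicle samples, over summed adult genes of only 1.28 to 5.73 FPKM. There the developmental genes had 9 to 15 reads, all of Tnnt1, Myh3, Actc1 and Mybph, so a high ratio was not particular to BG136 2.

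Myog, the factor that turns on the differentiation program, was at 1.41, 0.241, 0.0425 and 0.459 FPKM in the BG136 and 0 and 0.300 FPKM in the vehicle muscle-containing samples, against 0 in all 5 muscle-poor samples. Those values rest on 31, 6, 1 and 22 reads in the BG136 and 0 and 7 reads in the vehicle samples. BG136 2 and the combined 7 and 9 were highest, and vehicle 3, with the most Acta1, had none. Myh8, the neonatal heavy chain, was at 0.465, 0.0955, 0 and 0.235 FPKM in the BG136 and 0.00891 and 0.0203 FPKM in the vehicle muscle-containing samples, against 0 in all 5 muscle-poor samples. Mymk, needed for the fusion of myoblasts, was at 0.361, 0.0399, 0 and 0.243 FPKM in the BG136 and 0 and 0.0424 FPKM in the vehicle muscle-containing samples, against 0 in all 5 muscle-poor samples. Chrng, the fetal subunit of the acetylcholine receptor, had reads in BG136 2 (12) and in the combined 7 and 9 (3), and in no other sample. Myh3, the embryonic heavy chain, was also highest in BG136 2, at 0.323 FPKM, but was read in muscle-poor samples too, at 0.0275 to 0.0546 FPKM.

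**Figure D3:**
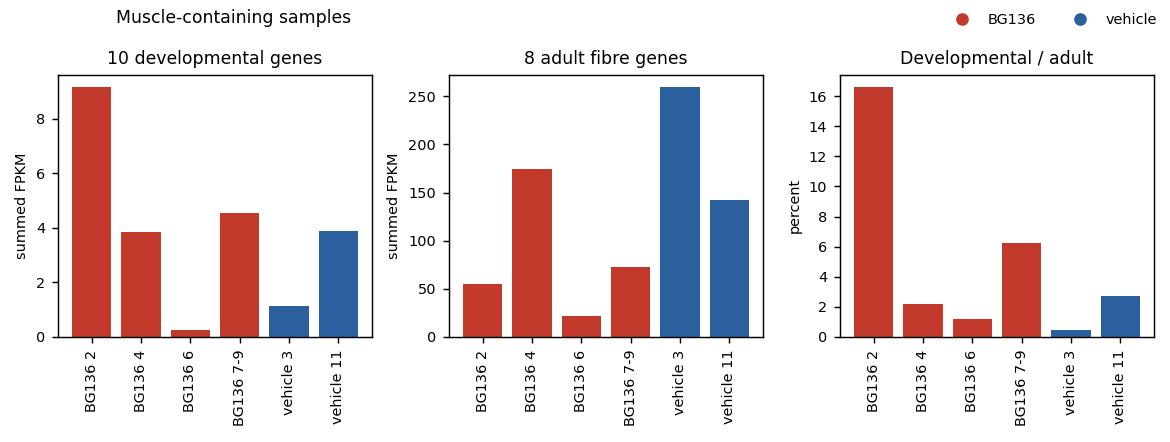
Summed FPKM of 10 developmental genes (left), of 8 adult fibre genes (middle) and the first as a percent of the second (right), 1 bar for each muscle-containing sample (red BG136, blue vehicle). BG136 2 has the tallest bar at left and right, 16.6% in the ratio, while vehicle 3 has the tallest bar in the middle and the lowest ratio, 0.436%. The 10 genes include Sln, Mybph and Tnnt1, which are not restricted to developing fibres.

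Outside the 7 muscle lists few differences passed a test, and the 3 genes that did are also known from striated muscle. Across the 11356 genes tested, 13 rose in muscle-containing samples (0.114%) and none fell (0%) at an adjusted p under 0.05 by limma, with treatment in the model. The filter favours the higher direction: it asks for 1 FPKM in 6 samples, the muscle-containing set has 6 and the muscle-poor set 5. Of the 13, 6 passed it only through the muscle-containing set and so had to differ. With a filter on the mean over all samples instead, 18 genes rose and 1, Tnfrsf9, fell. Of the 13, 10 were on the 7 muscle lists, which is no finding, and 3 were not: Fhl1, Ankrd23 (which is on a separate list of muscle damage and repair genes) and Mustn1. At an unadjusted p under 0.05, 3.19% of genes were higher and 1.09% lower in muscle-containing samples. The 13 calls fell to 1 without vehicle 3 and to 1 without vehicle 11, to 8 without BG136 2, without vehicle 1 or without vehicle 2, to 7 without vehicle 12, and to 5 without treatment in the model. They numbered 22 without BG136 6 and vehicle 7, the samples nearest the limit. No gene passed a test of whether the difference between the sets differed between BG136 and vehicle (0 by limma, 78 at an unadjusted p under 0.05).

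Fhl1, a LIM-domain protein abundant in skeletal muscle, was at 2.41, 5.21, 1.27 and 2.03 FPKM in the BG136 and 8.63 and 4.11 FPKM in the vehicle muscle-containing samples, against 0.389 in the BG136 and 0.982, 0.455, 0.762 and 0.491 FPKM in the vehicle muscle-poor samples. The sets did not overlap, and the log2 difference was 1.80 ± 0.28 (SE). Fhl1 reached 1 FPKM only in the muscle-containing set, so its limma adjusted p of 0.0374 is not read as support; it was 0.0326 with the filter on the mean over all samples. Ankrd23, an ankyrin repeat protein that binds titin, was at 5.53, 6.39, 3.47 and 4.17 FPKM in the BG136 and 11.9 and 6.70 FPKM in the vehicle muscle-containing samples, against 2.02 in the BG136 and 2.16, 2.41, 3.80 and 2.57 FPKM in the vehicle muscle-poor samples. Only BG136 6 and vehicle 7 overlapped, and the log2 difference was 1.25 ± 0.20 (SE; limma adjusted p = 0.0402).

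Mustn1, a small nuclear protein of muscle and skeleton, was at 2.92, 2.83, 0.854 and 1.42 FPKM in the BG136 and 4.95 and 4.19 FPKM in the vehicle muscle-containing samples, against 0.518 in the BG136 and 1.05, 0.795, 0.597 and 0.833 FPKM in the vehicle muscle-poor samples. The lowest muscle-containing sample, BG136 6, lay within the range of the muscle-poor samples, and the log2 difference was 1.35 ± 0.22 (SE; limma adjusted p = 0.0462). All 3 genes are known from striated muscle, and Fhl1 and Ankrd23 were among the 8 genes outside the muscle lists most like Acta1. Since the division was made from a muscle gene, the p-values of all 3 are not read as support. These calls were near the threshold. Without a filter all 3 were lost, with limma adjusted p-values of 0.0621 for Fhl1, 0.0686 for Ankrd23 and 0.0686 for Mustn1. Without treatment in the model all 3 were lost too, at 0.316, 0.722 and 0.931, and Ankrd23 was lost with vehicle samples alone (0.160). None of the 3 passed under the replicate block over 6 samples, where the smallest adjusted p of the 3 was 0.153. Over the samples left out in turn, limma's adjusted p ran from 0.00648 to 0.198 for Fhl1, from 0.0120 to 0.198 for Ankrd23 and from 0.00175 to 0.357 for Mustn1. Leaving out any 1 sample but BG136 6 or BG136 4 ended the call of Fhl1, any but BG136 6 that of Mustn1, and any but BG136 6 or vehicle 7 that of Ankrd23; values without vehicle 11 were 0.117, 0.356 and 0.107.

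The genes outside the muscle lists that followed Acta1 most closely over the 11 samples were Hspb7 (Pearson r = 0.949), Smpx (0.947), Trim72 (0.942), Fhl1 (0.940), Shisa2 (0.919), Ankrd23 (0.917), Klhl31 (0.903) and Eef1a2 (0.901), on the log2(FPKM + 1) scale. They share the samples and the depth with Acta1, and the correlation is a description. Hspb7, a small heat shock protein of heart and skeletal muscle, was at 1.29, 3.64, 0.227 and 1.18 FPKM in the BG136 and 4.19 and 2.70 FPKM in the vehicle muscle-containing samples, against 0.0602 in the BG136 and 0.0424, 0.0199, 0.148 and 0.0418 FPKM in the vehicle muscle-poor samples. Smpx, a small protein of striated muscle, was at 0.119 to 1.08 FPKM in muscle-containing samples and listed at 0 in all 5 muscle-poor samples. Trim72, a membrane repair protein of muscle, was at 0.208 to 1.06 FPKM in muscle-containing and 0.0367 to 0.174 FPKM in muscle-poor samples.

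Other genes with the smallest p did not pass the threshold. Thbs4, a thrombospondin of tendon and muscle matrix, was at 6.47, 3.35, 1.26 and 4.66 FPKM in the BG136 and 9.84 and 9.34 FPKM in the vehicle muscle-containing samples, against 1.32 in the BG136 and 1.28, 2.03, 1.47 and 1.08 FPKM in the vehicle muscle-poor samples. Of the 6 muscle-containing samples, 5 lay above every muscle-poor sample, with BG136 6 the exception. Its log2 difference was 1.68 ± 0.31 (SE; limma adjusted p = 0.125); over the samples left out in turn the adjusted p ran from 0.00119, without BG136 6, to 0.999, without vehicle 11. Mgp, an inhibitor of calcification made by cartilage and vessel wall, was at 13.2, 18.3, 13.5 and 14.03 FPKM in the BG136 and 26.1 and 32.5 FPKM in the vehicle muscle-containing samples, against 12.8 in the BG136 and 13.2, 10.5, 12.3 and 12.5 FPKM in the vehicle muscle-poor samples. The high values were those of the vehicle samples, and the log2 difference of 0.82 ± 0.18 (SE) had a limma adjusted p of 0.399, which ran from 0.0151, without BG136 1, to 0.999 over the samples left out in turn.

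In the lower direction, Tnfrsf9 had the smallest p. Tnfrsf9, the costimulatory receptor 4-1BB of activated T cells, was at 7.93, 8.05, 5.98 and 6.36 FPKM in the BG136 and 5.68 and 3.83 FPKM in the vehicle muscle-containing samples, against 10.7 in the BG136 and 8.53, 8.56, 8.24 and 9.36 FPKM in the vehicle muscle-poor samples. Every muscle-containing sample lay below every muscle-poor sample. The log2 difference was −0.68 ± 0.12 (SE; limma adjusted p = 0.0548), and −0.71 after rescaling of the samples (adjusted p = 0.0334). For Tnfrsf9, limma's adjusted p ran from 0.0593 to 0.280 over the samples left out in turn, so it passed in none of these fits. The other genes with small p, Ifi214, Siglece and Hba-a2 on the higher side and Serpinb9b, Adam8, Cdk18, Tcim, Egln3, Atp6v0d2 and Cxcl3 on the lower side, had limma adjusted p-values of 0.37 to 0.812. Siglece, a sialic acid receptor of myeloid cells, was at 4.55 to 6.81 FPKM in muscle-containing and 2.27 to 5.89 FPKM in muscle-poor samples; its adjusted p ran from 0.0298, without vehicle 7, to 0.999 over the samples left out in turn.

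**Figure D4:**
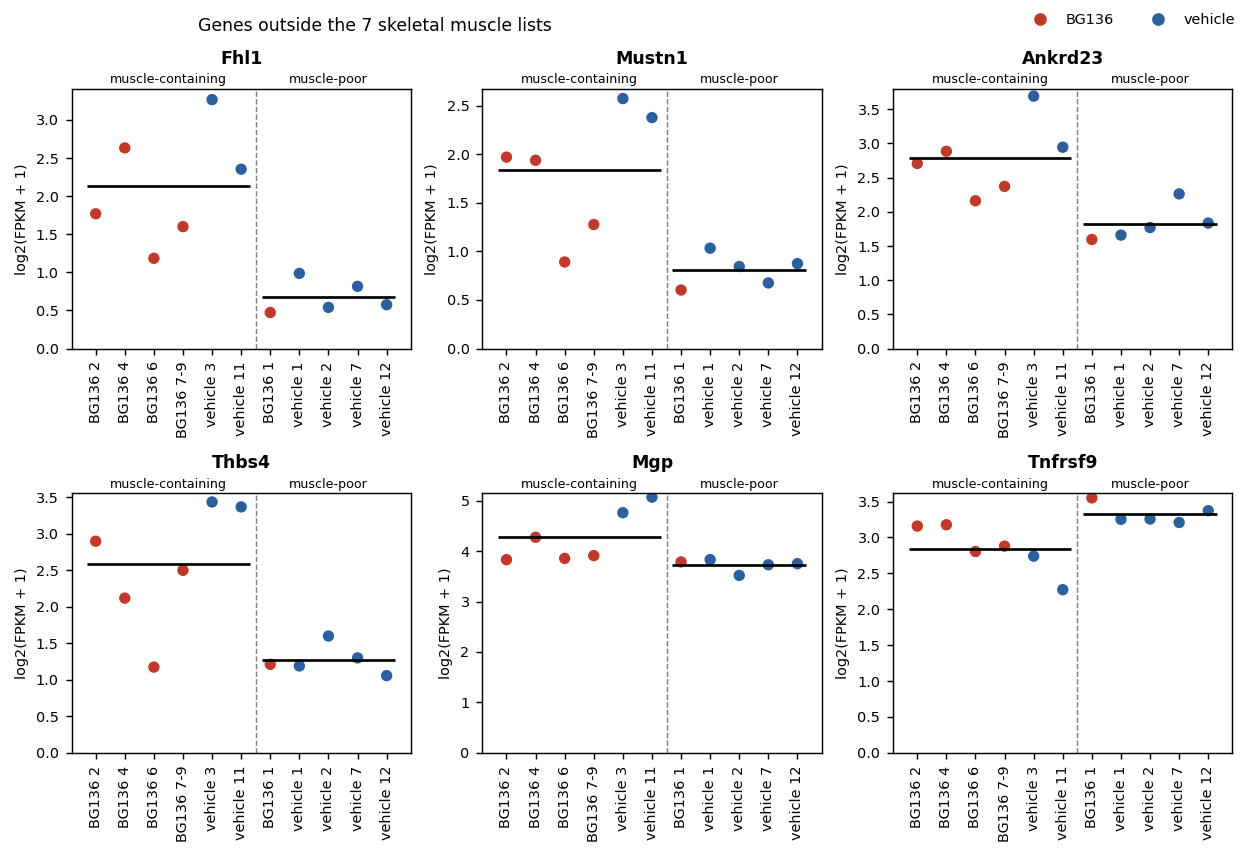
Level of 6 genes outside the 7 skeletal muscle lists as log2(FPKM + 1), 1 point per sample, muscle-containing left of the dashed line (red BG136, blue vehicle), with the mean of each set as a black line. Fhl1 (1.80), Mustn1 (1.35) and Ankrd23 (1.25), all known from striated muscle, passed limma's threshold, which is not read as support. Thbs4, Mgp and Tnfrsf9 did not pass.

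Genes of glycolysis and of the response to low oxygen were mostly lower in muscle-containing samples, and none passed the adjusted threshold. Here and below, counts of higher and lower genes by muscle set are signs of the log2 difference with treatment held fixed. This sign can differ from that of the plain means. Of 21 tested, 20 were lower and 1 was higher in muscle-containing samples. Over all 11356 genes tested, 4653 were lower and 6703 higher. The list's median log2 difference was −0.22, against 0.03 over all genes tested. On the lower side 8 had an unadjusted p under 0.05, where 1.09% of all genes did. The list's mean log2 deviation was −0.20, −0.19, 0.29 and −0.18 in the BG136 and −0.16 and −0.19 in the vehicle muscle-containing samples, against 0.13 in the BG136 and 0.13, 0.16, 0.11 and 0.11 in the vehicle muscle-poor samples. BG136 6, the muscle-containing sample with the least Acta1, was the highest of all 11, and the other 5 muscle-containing samples lay below every muscle-poor sample. Without BG136 6 the count was 14 of 21 (1.9% of all genes in that fit), with a median of −0.27 and 0 past the adjusted threshold; that sample goes against the rest, so nothing is read from the higher count. Whether muscle RNA had a part in this was not tested.

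Slc2a1, the glucose transporter GLUT1, was at 77.3, 69.3, 144 and 77.3 FPKM in the BG136 and 87.9 and 79.04 FPKM in the vehicle muscle-containing samples, against 134 in the BG136 and 151, 140, 99.1 and 112 FPKM in the vehicle muscle-poor samples. Its log2 difference was −0.58 ± 0.20 (SE; limma adjusted p = 0.812). Hk2, the hexokinase that starts glycolysis, was at 24.4, 24.2, 36.3 and 23.7 FPKM in the BG136 and 26.0 and 18.5 FPKM in the vehicle muscle-containing samples, against 40.9 in the BG136 and 39.6, 38.0, 28.4 and 25.4 FPKM in the vehicle muscle-poor samples. Its log2 difference was −0.56 ± 0.17 (SE; limma adjusted p = 0.812).

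Egln3, an oxygen-sensing prolyl hydroxylase that low oxygen induces, was at 16.4 to 35.6 FPKM in muscle-containing samples, against 25.6 to 33.8 FPKM in muscle-poor samples. Vegfa, the growth factor of vessels, was at 80.8, 63.6, 105 and 62.2 FPKM in the BG136 and 66.4 and 46.6 FPKM in the vehicle muscle-containing samples, against 94.2 in the BG136 and 86.4, 81.9, 83.4 and 70.9 FPKM in the vehicle muscle-poor samples. The gene with the opposite sign was Gapdh, a glycolytic enzyme, at a log2 difference of 0.14. Adm, the vasodilator peptide adrenomedullin, is on no list and was chosen after its values were seen. It was at 4.89, 4.36, 16.8 and 4.81 FPKM in the BG136 and 5.02 and 6.499 FPKM in the vehicle muscle-containing samples, against 12.8 in the BG136 and 12.4, 11.4, 9.09 and 8.33 FPKM in the vehicle muscle-poor samples. Its limma adjusted p was 0.812.

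T cell genes showed no member past a threshold. Of 13 tested, 12 were higher in muscle-containing samples, where 6703 of all 11356 genes tested were. The list's median log2 difference was 0.33, against 0.03 over all genes tested. An unadjusted p under 0.05 was found for 0 of them, where 3.19% of all genes had one on the higher side. The list's mean log2 deviation was 0.41, 0.22, −0.92 and 0.38 in the BG136 and 0.21 and 0.20 in the vehicle muscle-containing samples, against −0.27 in the BG136 and 0.07, −0.17, 0.00 and −0.13 in the vehicle muscle-poor samples. BG136 6 was the lowest of the 11 samples, and the other 5 muscle-containing samples lay above every muscle-poor sample. Without BG136 6 the median was 0.45 and 9 of the 13 had an unadjusted p under 0.05 (5.6% of all genes in that fit), with 0 past the adjusted threshold; nothing is read from this count either. Cd8b1, a coreceptor chain of cytotoxic T cells, was at 17.5, 17.0, 6.29 and 17.4 FPKM in the BG136 and 14.2 and 16.3 FPKM in the vehicle muscle-containing samples, against 9.23 in the BG136 and 9.75, 7.67, 15.1 and 12.4 FPKM in the vehicle muscle-poor samples. Ly6c2, a surface protein of inflammatory monocytes that some T cells share, was at 106, 96.0, 38.9 and 113 FPKM in the BG136 and 92.9 and 134 FPKM in the vehicle muscle-containing samples, against 49.0 in the BG136 and 59.5, 39.2, 90.4 and 52.5 FPKM in the vehicle muscle-poor samples. Its log2 difference was 0.86 ± 0.31 (SE; limma adjusted p = 0.812).

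No haemoglobin gene passed the adjusted threshold. All 5 erythroid genes tested were higher in muscle-containing samples, where 6703 of all 11356 genes tested were. Their median log2 difference was 0.48, and 4 had an unadjusted p under 0.05 on the higher side, where 3.19% of all genes did. Hba-a2, an α-globin, was at 3.59, 2.54, 1.68 and 2.33 FPKM in the BG136 and 4.54 and 4.05 FPKM in the vehicle muscle-containing samples, against 1.38 in the BG136 and 1.77, 2.25, 1.35 and 2.87 FPKM in the vehicle muscle-poor samples. The α-globin genes Hba-a1 and Hba-a2 are near-identical copies, and their reads may be split between them. Without vehicle 3 the list's median was 0.29.

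Ankrd23 was the sole gene past the threshold on the list of muscle damage and repair. On that list 7 of 8 tested genes were lower in muscle-containing samples, with a median of −0.12. The list has 16 genes, and 4 of those not tested are also on the muscle lists. These were Myh3, Myh8, Csrp3 and Sln, with higher means at log2 differences of 0.14, 0.11, 1.92 and 0.78. The count of 7 thus does not describe the whole list. Lists of other tissues had none past the threshold. Their counts stand beside 6703 higher of all 11356 genes tested. Tendon genes had 3 of 5 higher (median 0.30), adipocyte genes 4 of 12 higher (−0.10), Schwann and nerve genes 2 of 5 higher (−0.09), endothelial genes 8 of 14 higher (0.04), fibroblast and matrix genes 5 of 18 higher (−0.11), smooth muscle and pericyte genes 4 of 9 higher (−0.09), keratinocyte genes 2 of 3 higher (0.21) and cardiac genes 2 of 3 higher (0.25). The tumor epithelium list had 2 of 6 higher (median −0.52) and was lowest in BG136 4 and 6. These medians rest on few genes and samples: without BG136 1 the cardiac median was 0.01 and that of the tumor epithelium −0.26, and without vehicle 3 the tendon median was 0.15.

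Among immune lists, monocyte and macrophage genes were evenly divided, with 10 of 20 higher (median 0.04), as were cytotoxic effectors with 8 of 15 (0.04). Over all genes tested, 6703 of 11356 were higher. B and plasma cell genes had 3 of 4 higher (0.06), genes of MHC class II and dendritic cells 10 of 13 (0.19, and −0.05 without BG136 1), mast cell and eosinophil genes 6 of 8 (0.22), and interferon-stimulated genes 12 of 16 (0.12). Neutrophil genes had 1 of 8 higher (−0.40, and −0.12 without BG136 1). Cxcl2, a chemokine that draws neutrophils, was at 2.93, 2.31, 2.15 and 1.86 FPKM in the BG136 and 3.80 and 1.46 FPKM in the vehicle muscle-containing samples, against 4.82 in the BG136 and 3.36, 4.74, 3.74 and 2.03 FPKM in the vehicle muscle-poor samples (limma adjusted p = 0.812).

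Housekeeping lists differed little in size. Over all 11356 genes tested, 6703 were higher and 4653 lower. All 24 oxidative phosphorylation genes were higher in muscle-containing samples (median 0.11), but the median was 0.00 without vehicle 11. Fatty acid oxidation genes had 11 of 14 higher (0.08), cell cycle genes 18 of 22 (0.08) and ribosomal genes 18 of 21 (0.03); the ribosomal median was −0.07 without vehicle 11 and −0.01 after rescaling. Immediate early and heat shock genes had 16 of 18 lower (−0.16). An exception, Cryab, a small heat shock protein abundant in muscle and lens, was at 5.50, 6.46, 2.19 and 3.65 FPKM in the BG136 and 7.83 and 8.99 FPKM in the vehicle muscle-containing samples, against 3.25 in the BG136 and 3.54, 4.12, 1.44 and 2.44 FPKM in the vehicle muscle-poor samples. Its log2 difference was 0.94 ± 0.29 (SE; limma adjusted p = 0.812).

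**Figure D5:**
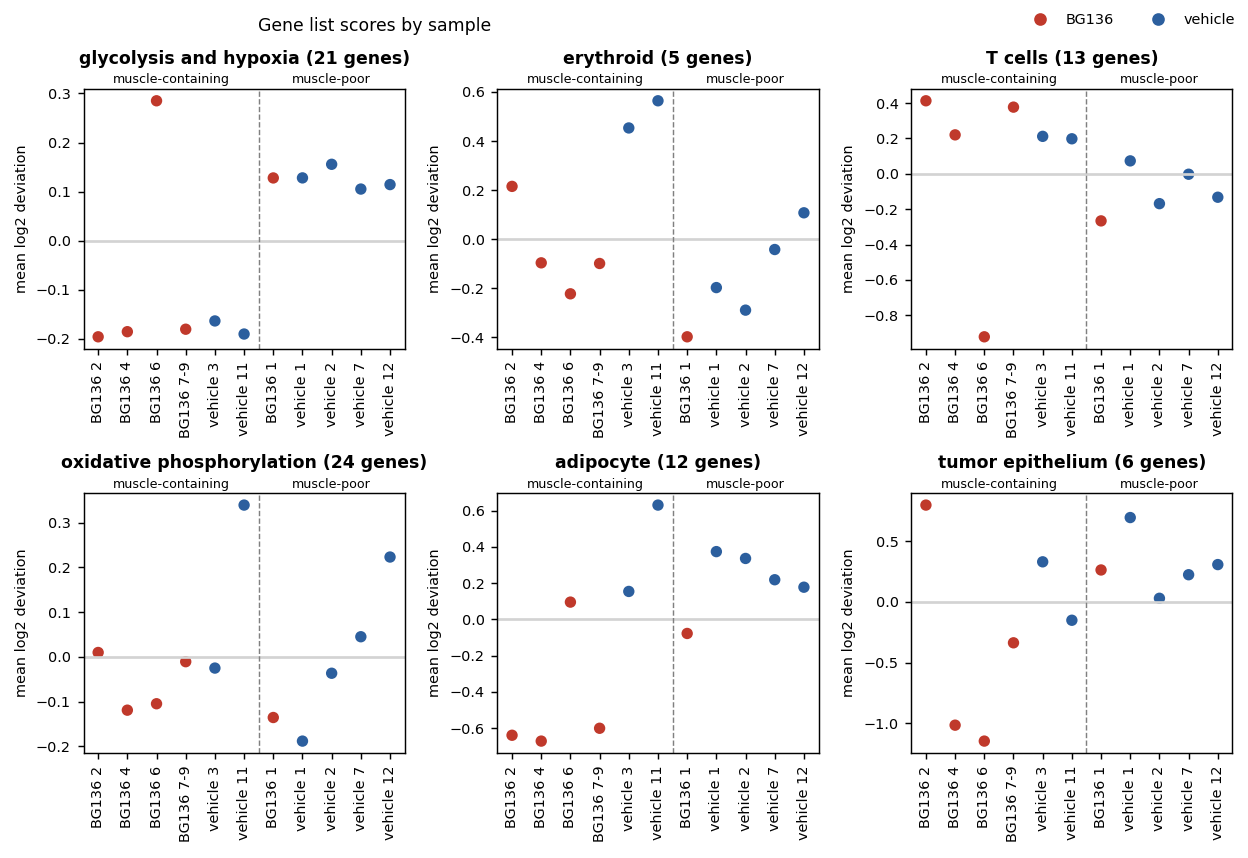
Mean log2 deviation of 6 gene lists (a sample's log2(FPKM + 1) minus the gene's mean over 11 samples, averaged over the list), 1 point per sample, muscle-containing left of the dashed line (red BG136, blue vehicle). For glycolysis and hypoxia, 5 muscle-containing samples lie at −0.20 to −0.16 and BG136 6 at 0.29, with muscle-poor samples at 0.11 to 0.16.

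Treatment comes from the labels, so it was tested against the muscle content directly. Acta1 averaged 29.5 ± 31.8 FPKM in BG136 samples (SD, n = 5) and 30.6 ± 48.6 FPKM in vehicle samples (SD, n = 6). The mean log2(FPKM + 1) was 1.35 higher in BG136 samples (exact two-sided permutation p = 0.422; the smallest p of the 462 splits is 0.00216). In the authors' deposited table, the comparison of the 2 treatments gave Acta1 a q-value of 0.998. With muscle set in the model, 0 of 11356 genes (0%) passed limma's adjusted threshold for BG136 against vehicle, and 147 were higher and 233 lower at an unadjusted p under 0.05. Without muscle set in the model, 0 passed and 105 were higher and 128 lower at an unadjusted p under 0.05.

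All 12 adipocyte genes tested were lower in BG136 than in vehicle samples with muscle set in the model (median log2 difference −0.77). All 12 were also lower without muscle set in the model (−0.76). The shared sign was not particular to them. Every member was also lower in both models on the oxidative phosphorylation (24 of 24), ribosomal (21 of 21) and erythroid lists (5 of 5). Their medians with muscle set in the model were −0.18, −0.18 and −0.50. The share of all genes tested that were lower in BG136 samples is not given here, so nothing is read from these counts. No adipocyte gene passed limma's adjusted threshold over the 11 samples. The authors' deposited comparison ran BG136 over vehicle per the file headers. In it Cidec, a lipid droplet protein, had a log2 fold change of −1.42 and a q-value of 0.0111. Its base means count BG136 7 and 9 as separate libraries, among 12, so the q-value and the fit here do not rest on the same samples. Adipoq, the fat cell hormone adiponectin, was at 1.31, 0.870, 4.04 and 1.37 FPKM in the BG136 and 3.79 and 9.36 FPKM in the vehicle muscle-containing samples, against 3.07 in the BG136 and 5.29, 4.84, 5.57 and 4.64 FPKM in the vehicle muscle-poor samples. The lowest samples were BG136 2, 4 and the combined 7 and 9, all muscle-containing. BG136 1, which is muscle-poor, came next at 3.07 FPKM, also below every vehicle sample. BG136 6 lay within the range of the vehicle samples. Glycolysis and hypoxia genes had a median BG136 minus vehicle difference of 0.05 with muscle set in the model and of −0.08 without it. For T cell genes these medians were −0.19 and −0.06.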

How the data were processed

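RNA of tumor blocks was sequenced in 12 libraries, 6 BG136 and 6 vehicle, from total RNA with a stranded mRNA kit per the labels' protocols. Whether each block came from its own animal is not stated in the labels, and p-values thus reflect only how these samples vary. A table of 15170 genes was deposited, with FPKM that the authors computed per library; its header names no unit for them, which was read from the values. The deposited base means are a signal scaled to library size. For the 2 treatments the deposited table adds p-values, q-values and the fold change both as a linear ratio and on the log2 scale. The tools named per the submitters' processing notes are HISAT2, Trimmomatic, HTSeq, Cufflinks and DESeq, with the build GRCm39 and no versions.

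Reads were recovered from FPKM and base means, and 100% lay within 0.1 of a whole number. Libraries BG136 7 and 9 were averaged. Samples were divided at an Acta1 level of 5 FPKM. Values were tested as log2(FPKM + 1) with limma 3.58.1 (R 4.3.3), moderated and with a trend of variance on mean level, on treatment and muscle set. Tested were 11356 genes with at least 1 FPKM in at least 6 of 11 samples, two-sided, adjusted by Benjamini-Hochberg, with a threshold of 0.05. Acta1 was compared between treatments by an exact permutation test. A list's score and median are descriptions. The steps were tested on simulated data. Genes on no muscle list were named by limma's threshold, filled up to 8 in each direction by smallest p, with up to 3 members per other list by smallest p, and the 8 with the highest r with Acta1. Members, lists and tests were chosen with earlier results of these data known. Alternatives were another pseudocount, other filters, voom on the recovered reads, all 12 libraries, rescaling, Acta1 as a continuous term, vehicle samples alone, a replicate block and leaving out samples; leaving out vehicle 11 and 12 together and the test of the interaction were added after seeing the data. Promoter sequences are from RefSeq (GRCm38.p6); no coordinates of the table's build were used here.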

Additional observations from a re-analysis of the deposited data

Results flagged for a closer look

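Within the sets, 194 gene and set pairs were examined for a sample far from the others, and 15 stood out by Dixon's 95% critical value for the gap over the range, a criterion set so that chance marks about 1 in 20 groups. BG136 6 stood out most often among muscle-containing samples: Cd8b1 at 6.29 FPKM (other samples 14.2 to 17.5), Cd4 at 3.47 (6.33 to 7.14), Lck at 7.69 (18.7 to 27.1), Ly6c2 at 38.9 (92.9 to 134), Slc2a1 at 144 (69.3 to 87.9) and Ncam1, a cell adhesion molecule of nerve and regenerating muscle, at 9.77 (6.31 to 7.04). This sample also had the least Acta1 of its set, 9.90 FPKM, and nearly no Krt8 or Krt18.

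Vehicle 11 stood out among muscle-containing samples with Cxcl3 at 0.622 FPKM (2.11 to 2.89 in the others), Irf7, a regulator of the interferon response, at 179 (117 to 135), Slc25a4, the mitochondrial ADP/ATP carrier, at 256 (182 to 204), and Acadvl, of fatty acid oxidation, at 32.8 (23.6 to 25.4). BG136 2 had Tnni3, the cardiac troponin I, at 3.96 FPKM (0.740 to 1.48 in the others), and it is also the sample with the most Myog.

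Among muscle-poor samples, vehicle 1 had Pmp22, a myelin protein, at 27.9 FPKM (33.7 to 35.1 in the others) and Ccr2, the chemokine receptor of inflammatory monocytes, at 8.30 (10.1 to 10.8). Vehicle 12 had Rps19, a ribosomal protein, at 498 FPKM (343 to 370). Vehicle 7, the muscle-poor sample with the most Acta1, was the only one with Klhl31 above 0, at 0.00937 FPKM.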

How the results depend on the processing

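For the muscle set 13 genes passed in the model described above. The count was 5 without treatment in the model, 22 without BG136 6 and vehicle 7, 0 without vehicle 11 and 12, and 1 to 16 over the samples left out in turn; it ranged from 9 to 19 under the other alternatives. For treatment given the muscle set the count was 0 in every alternative but the replicate block, where it was 1. The Acta1 difference by treatment ran from 0.743 to 2.27 over the samples left out in turn (exact p 0.183 to 0.667).

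BG136 and vehicle shared the numbers 1, 2 and 7. Deviations of same-numbered samples correlated at 0.49, −0.42 and 0.25, so the numbers were not taken to pair samples. The replicate block over these 6 samples called 9 genes by muscle set and 1 by treatment, and gave an Acta1 difference of 2.49 (exact p = 0.5; the smallest possible is 0.25). Under the block these genes changed sign: Serpinb9b 0.0746, Atp6v0d2 0.0454, Fmod −0.22, Actg2 0.26, Cd36 0.00211, Pmp22 −0.26, Cldn5 0.28, Krt8 0.46, Krt18 1.13, Epcam 0.0970, Gzmc 0.0581, Jchain 0.0600, Tpsb2 −0.0217, S100a8 0.0116, Slc25a4 −0.16, Acadvl −0.21, Rps19 −0.0236 and Egr2 0.0797. With fewer samples, these values rest on 1 residual degree of freedom.

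Elsewhere Jchain turned to 0.15 with Acta1 as a continuous term, 0.10 without BG136 6 and vehicle 7, and 0.0931 without vehicle 11 and 12; Gzmc to 0.0291 and Rpl10a to −0.0177 without treatment in the model. Over the samples left out in turn, Jchain ran from −0.215 to 0.0883, Cspg4 from −0.327 to 0.0362, Rps19 from −0.0407 to 0.188 and Pmp22 from −0.00888 to 0.123, with vehicle 11 or vehicle 3 the sample whose absence turned the sign of the last 3 and BG136 6 or vehicle 11 that of Jchain. None of these had passed the threshold, and the cause was not tested. With vehicle samples alone, the list medians of adipocyte (0.08), fibroblast (0.12), cytotoxic (−0.13), B cell (−0.05), MHC class II (−0.05) and smooth muscle genes (0.05) changed sign. The BG136 comparison of sets rests on a single muscle-poor sample, and low genes on few reads.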
